A study of Mus musculus with 12 samples.

Results

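Target genes of the transcription factor p53 were described on expression arrays of acute hippocampal slices of mice. They were 10 listed symbols: Cdkn1a, Mdm2, Bax, Bbc3, Pmaip1, Perp, Sesn2, Eda2r, Ccng1 and Zmat3. A gene counted as measured where a transcript cluster, the set of array probes for 1 transcribed region, carried its symbol and no other. This held for 9 of the 10 members, out of 22180 genes with such a cluster. Bax had none in the annotation used here, and neither had Trp53, the gene of p53 itself. Each of the 9 had a single such cluster, so no choice between clusters was needed.

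The study asked how a mutant of the phosphatase Ptpn11 (Shp2) affects gene expression in hippocampal slices at rest and after a bout of network activity. Ptpn11D61Y mice carried 1 conditional Ptpn11floxedD61Y allele together with Emx1IREScre. The paper describes this Cre driver as selective for forebrain astrocytes and excitatory neurons, and its activity in other cell types of the slice was not tested here. The sample labels describe the control mice as carrying the floxed allele without Cre, whereas the methods describe them as wild type for Ptpn11 with Cre, and the control genotype is therefore given here by its name only. Slices of animals aged 8 to 11 weeks were treated for 10 min with 2.5 mM 4-aminopyridine, a potassium channel blocker, and 50 µM bicuculline, a blocker of GABA-A receptors (S, stimulated), or for 10 min with the vehicle DMSO (B, basal), and were collected for RNA 3 h later. The 12 arrays formed 4 groups of 3, Ptpn11D61Y S, Ptpn11D61Y B, control S and control B, and each replicate number is an animal number in the labels, with slices of 1 animal pooled in each chamber according to the methods. The same number in S and B of a genotype was read as the same animal, which the labels do not state outright.

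p53 is a short-lived protein that the ubiquitin ligase Mdm2 keeps low. DNA damage and other stresses stabilize it, and it then binds response elements near its target genes as a tetramer. The targets include an arrest arm led by the cyclin-dependent kinase inhibitor Cdkn1a (p21), an apoptosis arm with the BH3-only proteins Bbc3 (Puma) and Pmaip1 (Noxa), and feedback genes such as Mdm2 and Ccng1. In neurons Cdkn1a and Mdm2 are also expressed outside of cell death, and p53 targets are commonly read as a sign of stress in brain tissue.

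Promoter windows of 250 bases before the transcription start and 50 bases after it were given for 7 of the 10 members, in 10 windows (RefSeq, GRCm38.p6). Each window was searched on both strands for the p53 consensus decamer, 1 of the 2 repeats of a p53 response element, which may overlap its own match on the other strand. The decamer was found in 4 of the 10 member windows and in 8.36% of 32851 windows of all genes. A pair of decamers separated by 0 to 13 bases was found in 1 member window, that of the first start of Cdkn1a, and in 0.0731% of all windows. Bbc3 had 3 of the 10 windows and Cdkn1a 2. The members were listed as p53 targets, so these shares are not a finding from the arrays. No window was given for Pmaip1, Perp and Zmat3. The 250 bases before the start are shown for Cdkn1a, Mdm2 and Ccng1, the 3 measured members with a window that held a match. They are in lower case with the decamers in capitals. The windows lie at chr17:29090729-29090978 on the plus strand for Cdkn1a, at chr10:117710759-117711008 on the minus strand for Mdm2 and at chr11:40755287-40755536 on the minus strand for Ccng1.
Cdkn1a: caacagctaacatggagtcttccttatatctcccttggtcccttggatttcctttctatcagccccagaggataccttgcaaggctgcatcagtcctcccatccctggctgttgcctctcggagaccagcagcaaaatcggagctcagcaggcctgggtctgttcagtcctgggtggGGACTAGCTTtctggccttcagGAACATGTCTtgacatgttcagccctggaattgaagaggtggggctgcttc
Mdm2: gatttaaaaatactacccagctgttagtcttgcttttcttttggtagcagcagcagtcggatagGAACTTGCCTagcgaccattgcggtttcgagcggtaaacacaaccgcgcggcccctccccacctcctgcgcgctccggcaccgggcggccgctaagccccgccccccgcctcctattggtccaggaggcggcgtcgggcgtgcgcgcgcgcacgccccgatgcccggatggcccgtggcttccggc
Ccng1: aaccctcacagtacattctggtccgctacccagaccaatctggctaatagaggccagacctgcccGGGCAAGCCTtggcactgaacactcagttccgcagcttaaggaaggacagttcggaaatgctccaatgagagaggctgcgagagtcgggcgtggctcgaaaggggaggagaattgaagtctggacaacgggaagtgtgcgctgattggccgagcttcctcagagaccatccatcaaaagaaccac
The window of the first start of Cdkn1a held GGACTAGCTT and GAACATGTCT, which began 73 and 51 bases before the start and were separated by 12 bases. The Mdm2 window held GAACTTGCCT at 186 bases before the start, and the Ccng1 window GGGCAAGCCT at 185 bases. A match of letters was not tested as a binding site. The window of the second start of Cdkn1a and the windows of Bbc3, Sesn2 and Eda2r held no decamer, and that of Bax held 1.

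The arrays of replicate 1 stood apart before any gene was looked at. Across all clusters r was 0.942 to 0.965 between arrays of replicates 2 and 3 (8 arrays), whereas it was 0.871 to 0.916 between these and the 4 arrays of replicate 1, and 0.840 to 0.924 among the arrays of replicate 1 themselves. Median signals of the 12 arrays ranged from 36.5 to 58.1 in linear units. The hippocampal excitatory neuron markers with the highest mean signal, Camk2a and Slc17a7, were present on every array, at log2 signals of 11.33 to 12.39 and 10.31 to 11.90. Group differences are given as log2 fold changes with standard errors from a limma fit to all 12 arrays, and the filter is that of the methods, a fold of 1.5 or more either way with p under 0.05 before adjustment. No cluster of the 41345 had a Benjamini-Hochberg adjusted p under 0.05 in any of the 7 comparisons made (limma, lowest adjusted p = 0.30), while 482 to 1482 clusters had an unadjusted p under 0.05.

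None of the 9 measured members passed the filter in any of the 7 comparisons. Of all clusters, 1.30% passed it for Ptpn11D61Y B against control B, 1.83% for Ptpn11D61Y S against control S, 3.17% for control S against control B and 1.14% for Ptpn11D61Y S against Ptpn11D61Y B. The share was 1.17% for the difference between the S against B responses of the genotypes, 1.38% for genotype over both states and 1.87% for stimulation over both genotypes. At these shares a count of 0 among 9 genes says little about the members as a set, and each gene is therefore described by its own values and interval. In whole slices fewer cells of a type and less RNA per cell cannot be told apart.

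**Figure D1:**
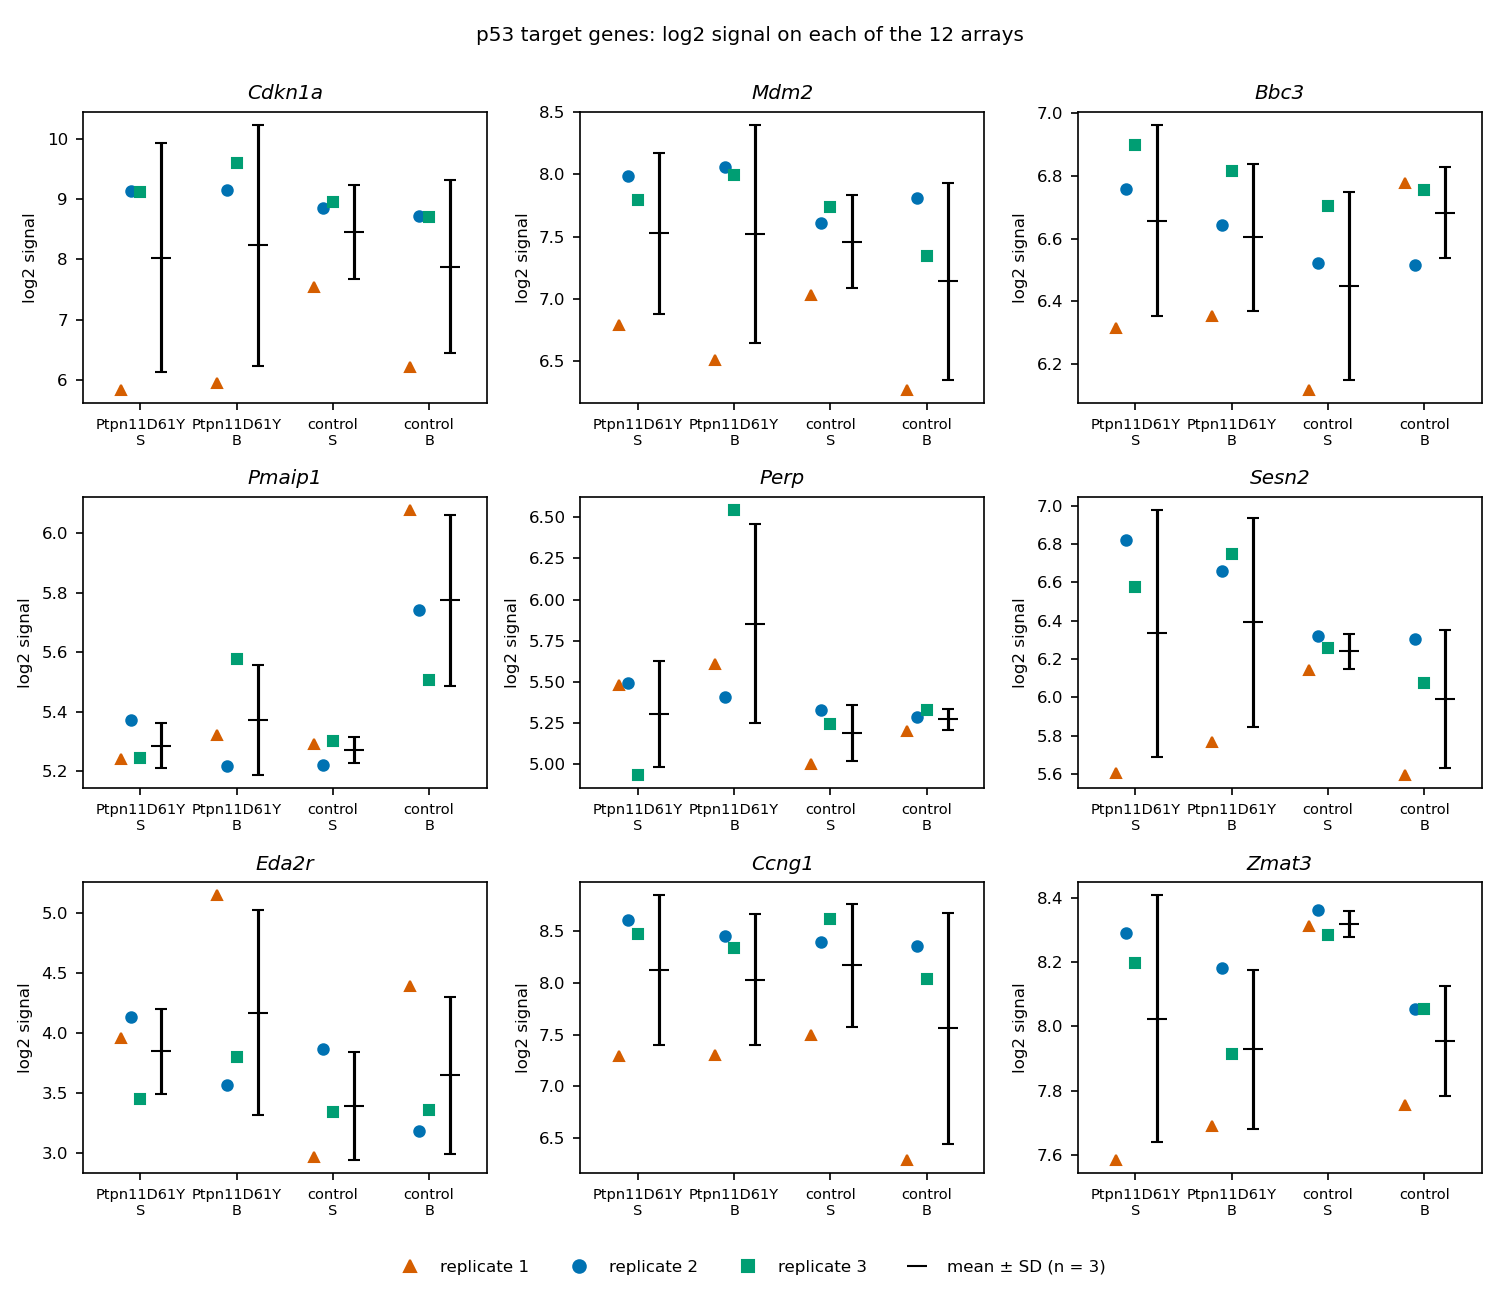
Log2 signal of the 9 measured p53 target genes on each of the 12 arrays (y axis, with its own range for each gene) by group of genotype and state (x axis). Symbols mark replicates 1 to 3, and horizontal ticks with bars give mean ± SD of 3 arrays. Replicate 1 is the lowest symbol in every group for Cdkn1a, Mdm2, Ccng1 and Sesn2.

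Cdkn1a encodes p21, which halts the cell cycle by inhibiting cyclin-dependent kinases and is a widely used readout of p53 activity (chr17:29090979-29100722). Its log2 signals in replicates 1 to 3 were 5.84, 9.13 and 9.11 in Ptpn11D61Y S and 5.95, 9.16 and 9.60 in Ptpn11D61Y B. They were 7.55, 8.86 and 8.96 in control S and 6.22, 8.71 and 8.70 in control B. In each group replicate 1 was the lowest array by more than 1 log2 unit, the 4 groups overlapped, and no group stood apart. The group means were 8.03 ± 1.90 in Ptpn11D61Y S, 8.23 ± 1.99 in Ptpn11D61Y B, 8.45 ± 0.79 in control S and 7.88 ± 1.43 in control B (SD, n = 3 each). The log2 fold change was 0.36 ± 1.09 for Ptpn11D61Y B against control B and -0.43 ± 1.09 for Ptpn11D61Y S against control S. It was 0.58 ± 1.09 for control S against control B and -0.21 ± 1.09 for Ptpn11D61Y S against Ptpn11D61Y B. The 95% interval of the first of these reached from -2.03 to 2.75, so that neither a several-fold increase nor a several-fold decrease could be told from no change with these arrays.

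Mdm2 and Ccng1 are targets that act back on p53. Mdm2 is the ubiquitin ligase that marks p53 for degradation, and Ccng1 (cyclin G1) is known to recruit a phosphatase to Mdm2. Mdm2 (chr10:117688875-117710758) had log2 signals of 6.79, 7.99 and 7.80 in Ptpn11D61Y S and 6.51, 8.06 and 7.99 in Ptpn11D61Y B. In control S they were 7.04, 7.61 and 7.74, and in control B 6.27, 7.81 and 7.34. Replicate 1 was again the lowest array in each group and the groups overlapped. Mdm2 differed by 0.38 ± 0.49 between Ptpn11D61Y B and control B, by 0.06 ± 0.49 between Ptpn11D61Y S and control S, by 0.32 ± 0.49 between control S and control B and by 0.01 ± 0.49 between Ptpn11D61Y S and Ptpn11D61Y B.

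Ccng1 (chr11:40748552-40755309) had log2 signals of 7.29, 8.61 and 8.47 in Ptpn11D61Y S and 7.31, 8.46 and 8.34 in Ptpn11D61Y B. In control S they were 7.50, 8.40 and 8.62, and in control B 6.29, 8.36 and 8.04. Control B replicate 1 was the lowest of the 12 arrays, 1 log2 unit or more below replicate 1 of the other groups. Ccng1 was 0.61 ± 0.56 higher in control S than in control B, a fold change above 1.5 with an unadjusted p = 0.296 in limma. Without control B replicate 1 it was -0.03 ± 0.48, and it was 0.26 with bi-weight means, which give outlying arrays less weight. With the animal number as a fixed block, which compares same-numbered slices with each other, the difference on all arrays had a standard error of 0.20 and an unadjusted p = 0.0168 in limma, and Ccng1 passed the filter, as did 4.48% of all clusters under that block. Its adjusted p in limma was then 0.62. With the animal as a random block the standard error was 0.42 and the unadjusted p = 0.176 in limma, and Ccng1 did not pass. By animal number the control difference was 1.21, 0.04 and 0.58, and the Ptpn11D61Y difference -0.01, 0.15 and 0.13.

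The proapoptotic BH3-only genes Bbc3 and Pmaip1 encode Puma and Noxa, which neutralize antiapoptotic Bcl-2 proteins. Bbc3 (chr7:16308398-16318334) had log2 signals of 6.31, 6.76 and 6.90 in Ptpn11D61Y S and 6.35, 6.64 and 6.82 in Ptpn11D61Y B. In control S they were 6.12, 6.52 and 6.70, and in control B 6.78, 6.52 and 6.75. The 12 arrays lay within 0.78 log2 units and the groups overlapped. Its differences were -0.08 ± 0.23 for Ptpn11D61Y B against control B, 0.21 ± 0.23 for Ptpn11D61Y S against control S, -0.24 ± 0.23 for control S against control B and 0.05 ± 0.23 for Ptpn11D61Y S against Ptpn11D61Y B.

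Pmaip1 (chr18:66458604-66465558) had log2 signals of 5.24, 5.37 and 5.24 in Ptpn11D61Y S and 5.32, 5.22 and 5.58 in Ptpn11D61Y B. In control S they were 5.29, 5.22 and 5.30, and in control B 6.08, 5.74 and 5.51. The control B arrays were the high ones, and all 3 control S arrays lay below all 3 control B arrays, which was the case for 8.21% of all clusters. Pmaip1 was lower in control S than in control B by -0.50 ± 0.22 with a 95% interval of -0.98 to -0.03. Its unadjusted p was 0.0391 and its adjusted p 0.912 in limma, and its fold change stayed under 1.5. The difference was -0.30 with arrays centred on their median, -0.33 with the quantile normalization repeated and -0.35 without control B replicate 1, with unadjusted p values of 0.218, 0.2 and 0.139 in limma. The difference between Ptpn11D61Y S and Ptpn11D61Y B was -0.09 ± 0.22. The difference between these responses, Ptpn11D61Y minus control, was 0.42 ± 0.31 with a 95% interval of -0.25 to 1.08 and an adjusted p of 1 in limma, so that the responses were not shown to differ. In the basal state Pmaip1 was lower in Ptpn11D61Y B than in control B by -0.40 ± 0.22, with Ptpn11D61Y B replicate 3 above control B replicate 3.

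Perp is a membrane protein of desmosomes and a p53 apoptosis effector (chr10:18845071-18857073). Its log2 signals were 5.48, 5.49 and 4.93 in Ptpn11D61Y S and 5.61, 5.41 and 6.54 in Ptpn11D61Y B. In control S they were 5.00, 5.33 and 5.24, and in control B 5.20, 5.29 and 5.33. All 3 Ptpn11D61Y B arrays lay above all 3 control B arrays, as in 2.48% of all clusters, but 2 of them by a small margin and replicate 3 by more than 1 log2 unit. The difference was 0.58 ± 0.30 (adjusted p = 1, unadjusted p = 0.078, limma), and it was 0.24 ± 0.27 without Ptpn11D61Y B replicate 3. Ptpn11D61Y S was lower than Ptpn11D61Y B by -0.55 ± 0.30, and by -0.21 ± 0.27 without that array. Without Ptpn11D61Y B replicate 2 instead, Perp passed the filter in both comparisons, at 0.80 ± 0.32 and -0.77 ± 0.32.

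The array with the high Perp signal was also the one with the highest summed signals of choroid plexus and endothelial markers. The choroid plexus is the epithelium that lines part of the ventricles next to the hippocampus. Of 11 listed markers 9 were measured, none was at 0 on any array, and their summed linear signal was 12917 in Ptpn11D61Y B replicate 3, against 631 and 687 in the other Ptpn11D61Y B arrays. It was 459 to 622 in Ptpn11D61Y S, 350 to 592 in control S and 498 to 578 in control B. Ttr, which encodes the transthyretin made by this epithelium, had a log2 signal of 13.01 on that array and 4.59 to 7.18 on the other 11. Kl, Clic6, Cldn2 and Aqp1 were also highest on that array, at 11.42, 9.98, 5.73 and 6.75. Other markers of the list differed little or went the other way. Folr1 was at 5.72 there and 5.64 in control B replicate 3, and Tmem72 at 5.03 there and 5.24 in control B replicate 1. Otx2 was at 5.47 there, below the 6.05 and 5.60 of Ptpn11D61Y B replicates 1 and 2. Across the 12 arrays the 3 genes whose pattern was most like that of Perp, of 16699 genes compared, were Pcolce (r = 0.941), the choroid plexus marker Sostdc1 (r = 0.927) and Epn3 (r = 0.926). Sostdc1 had a log2 signal of 9.33 on that array and 5.28 to 6.64 on the other 11. The summed signal of the 14 endothelial markers was 4048 on that array and 1365 to 2848 on the other 11. The part of these markers in the Perp difference was not tested.

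**Figure D2:**
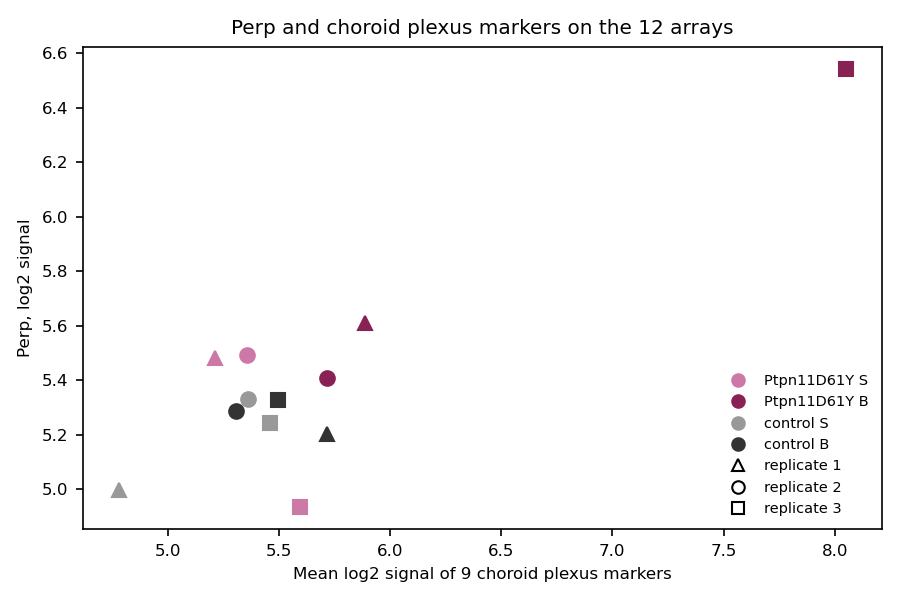
Log2 signal of Perp (y axis) against the mean log2 signal of the 9 measured choroid plexus markers (x axis) on each of the 12 arrays, with colours for group and symbols for replicate. Ptpn11D61Y B replicate 3 lies alone at the upper right, at 8.05 for the markers and 6.54 for Perp, and the other 11 arrays lie between 4.78 and 5.89 for the markers.

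Sesn2 (sestrin 2) restrains mTORC1 signaling and oxidative stress and answers to p53 as well as to the integrated stress response (chr4:132492804-132510456). Its log2 signals were 5.60, 6.82 and 6.57 in Ptpn11D61Y S and 5.77, 6.66 and 6.75 in Ptpn11D61Y B. In control S they were 6.14, 6.32 and 6.26, and in control B 5.59, 6.30 and 6.07. In replicates 2 and 3 both Ptpn11D61Y groups lay above both control groups, and replicate 1 was low in all 4. Sesn2 differed by 0.40 ± 0.35 between Ptpn11D61Y B and control B, by 0.09 ± 0.35 between Ptpn11D61Y S and control S, by 0.25 ± 0.35 between control S and control B and by -0.06 ± 0.35 between Ptpn11D61Y S and Ptpn11D61Y B.

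Eda2r, a receptor of the TNF receptor family for the ectodysplasin isoform A2, was dim (chrX:97333837-97377234). Its log2 signals were 3.96, 4.13 and 3.45 in Ptpn11D61Y S and 5.15, 3.57 and 3.80 in Ptpn11D61Y B. In control S they were 2.97, 3.87 and 3.34, and in control B 4.40, 3.19 and 3.36. Replicate 1 was the highest array in both basal groups and the lowest in control S, and the groups overlapped. Its mean over the 12 arrays, 3.77, lay under the minimum of 5 used in 1 alternative, and its differences of 0.52 ± 0.49 for Ptpn11D61Y B against control B, 0.45 ± 0.49 for Ptpn11D61Y S against control S, -0.25 ± 0.49 for control S against control B and -0.32 ± 0.49 for Ptpn11D61Y S against Ptpn11D61Y B all had 95% intervals that include 0.

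Zmat3, an RNA-binding zinc finger protein that acts in splicing downstream of p53, varied little (chr3:32334792-32365665). Its log2 signals were 7.58, 8.29 and 8.20 in Ptpn11D61Y S and 7.69, 8.18 and 7.92 in Ptpn11D61Y B. In control S they were 8.31, 8.36 and 8.28, and in control B 7.76, 8.06 and 8.05. The control S arrays were close to each other and all 3 lay above all 3 control B arrays, as in 2.03% of all clusters. Zmat3 was 0.36 ± 0.22 higher in control S than in control B (adjusted p = 0.912, limma), a fold change under 1.5. The difference between Ptpn11D61Y S and Ptpn11D61Y B was 0.09 ± 0.22, and the difference between these responses, Ptpn11D61Y minus control, was -0.27 ± 0.31 with a 95% interval of -0.96 to 0.42.

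**Figure D3:**
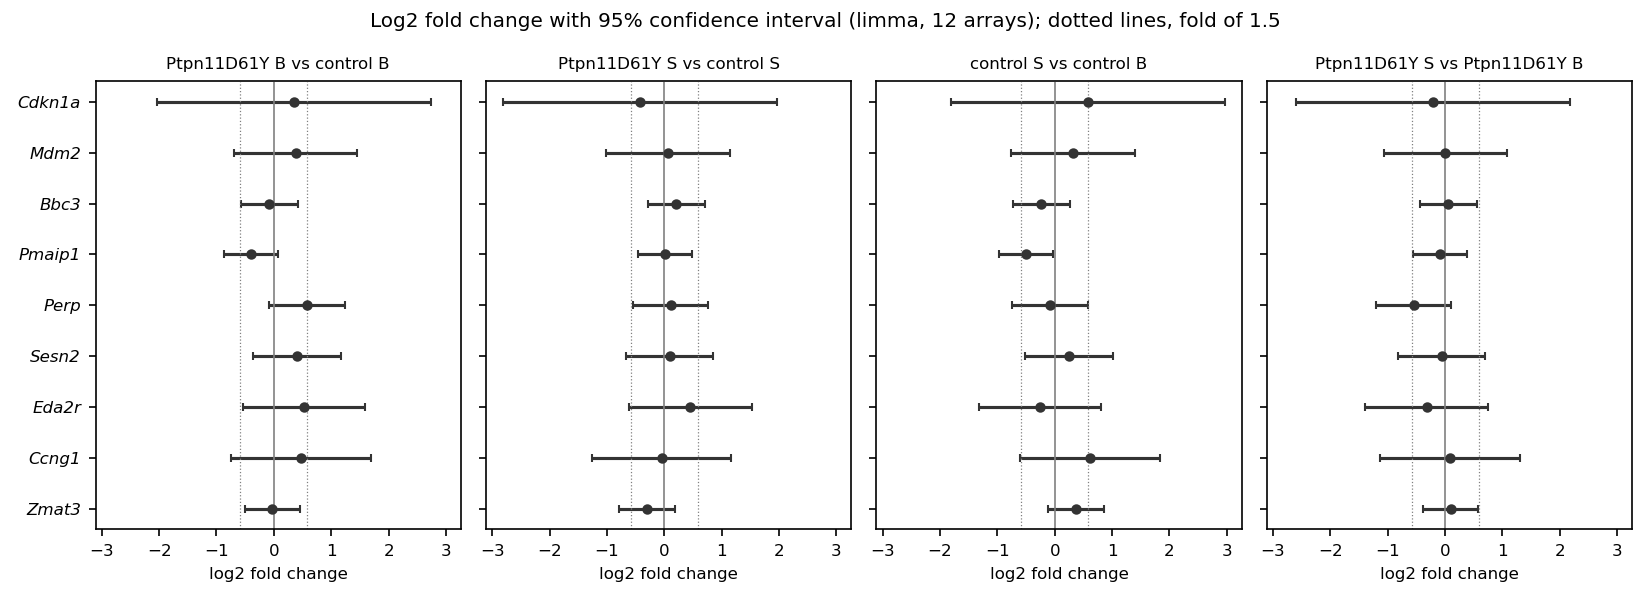
Log2 fold changes of the 9 members (x axis) with 95% confidence intervals from limma on 12 arrays, 1 panel for each of 4 comparisons, with dotted lines at a fold of 1.5 either way. Cdkn1a has the widest intervals, from -2.03 to 2.75 in the basal comparison, and the interval of Pmaip1 in control S against control B, -0.98 to -0.03, is the only one of the 36 that does not include 0.

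Ordered by their means, the 4 groups overlapped with their neighbours for every member, in all 3 neighbouring pairs. Groups further apart in the order did not overlap in the cases given above for Pmaip1, Perp and Zmat3. Described by medians, the members had a median log2 fold change of 0.38 for Ptpn11D61Y B against control B, with 6 of 9 above 0, while the median over all clusters was 0.00 and 50.1% of them were above 0. In the same comparison the median was 0.47 for oligodendrocyte markers, with 9 of 9 above 0, 0.34 for endothelial markers, with 12 of 14 above 0, and 1.12 for choroid plexus markers, with 7 of 9 above 0. The summed signal of oligodendrocyte markers was 5783 to 9056 in Ptpn11D61Y B and 4704 to 6366 in control B, and the part of these markers in the members' values was not tested. For Ptpn11D61Y S against control S the members' median was 0.06 with 6 of 9 above 0, as against 0.06 and 58.6% over all clusters. For control S against control B it was 0.25 with 5 of 9 above 0, as against -0.10 and 41.3% over all clusters, and for Ptpn11D61Y S against Ptpn11D61Y B it was -0.06 with 4 of 9 above 0, as against -0.02 and 46.5%. These comparisons share arrays, and the members share arrays too, so that the medians do not count as independent observations.

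Some members differed more between replicate numbers than between groups, and Cdkn1a, Mdm2 and Ccng1 did so most clearly. Cdkn1a had log2 signals of 5.84 to 7.55 on the 4 arrays of replicate 1 and of 8.70 to 9.60 on the other 8. Mdm2 had 6.27 to 7.04 on the arrays of replicate 1 and 7.34 to 8.06 on the others, and Ccng1 6.29 to 7.50 and 8.04 to 8.62. For these 3 of the 9 members the arrays of replicate 1 all lay below the other 8, as for 15.1% of all clusters. They did so for 6115 of the 25329 clusters of mean log2 signal of at least 5. The count was 8 of 17 for regulators of p53 and 5 of 12 for close paralogs of the members. Among other p53 targets it was 5 of 12 for repair and metabolism, 2 of 12 for arrest and 1 of 13 for apoptosis. The mean difference, replicate 1 minus the others, was -2.64 for Cdkn1a, -1.14 for Mdm2 and -1.32 for Ccng1. Only 50 of the 41345 clusters, 0.121%, had a difference as far below 0 as Cdkn1a, against 4.84% for Mdm2 and 3.08% for Ccng1. After centring every array on its median the differences were -2.74 for Cdkn1a, -1.24 for Mdm2 and -1.42 for Ccng1.

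The other 6 members did not share this pattern to that extent. Sesn2 was lower by -0.69 on the arrays of replicate 1, with overlap, Zmat3 by -0.33, Bbc3 by -0.31 and Perp by -0.12. Pmaip1 differed by 0.08 and Eda2r by 0.53 in the other direction. The arrays of replicate 1 also had lower signals of astrocyte markers, of which 8 of 8 were lower (median -1.14), with summed linear signals of 4076 to 4998, against 9124 to 11665 on the other arrays. Excitatory neuron markers were lower in 11 of 11 (median -0.82), with summed signals of 6733 to 8880, against 9471 to 15679, and no marker of either list was at 0. Endothelial markers were lower in 12 of 14 (median -0.52) and oligodendrocyte markers in 9 of 9 (median -0.31), while the median over all clusters of mean log2 signal of at least 5 was -0.23. The part of these markers in the differences of Cdkn1a, Mdm2 and Ccng1 was not tested.

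**Figure D4:**
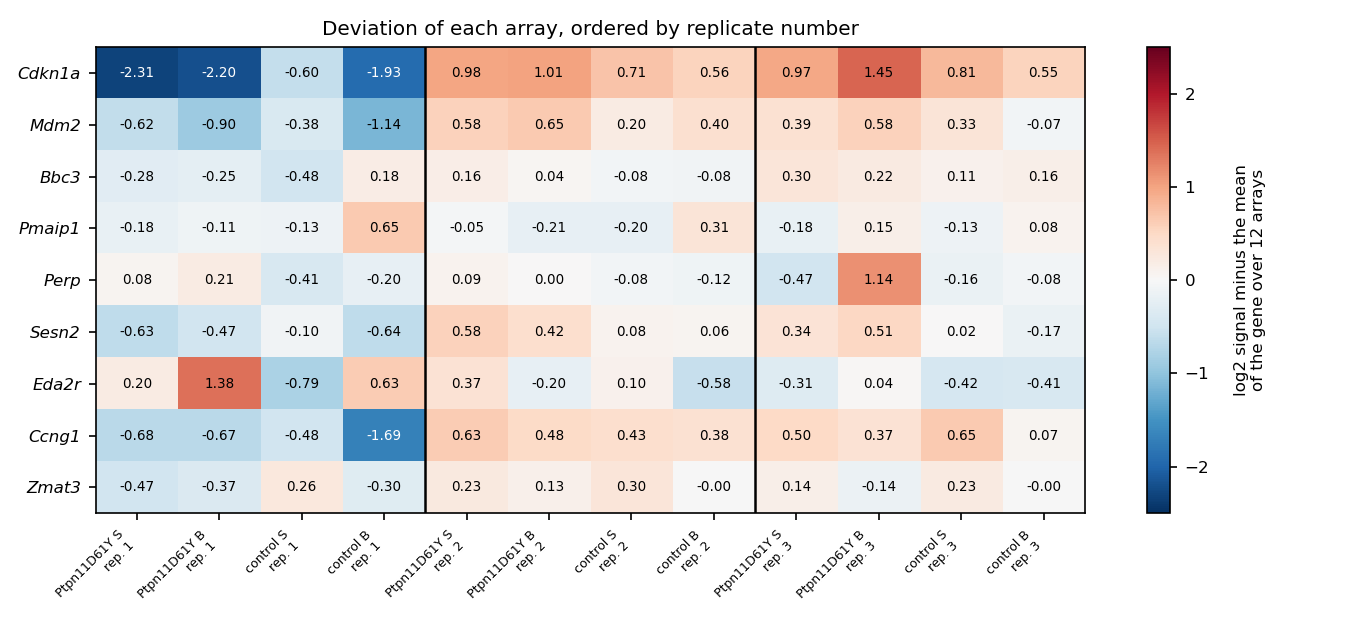
Deviation of each array (columns, ordered by replicate number and then by group) from the mean of each gene over the 12 arrays (rows), in log2 units, with red above and blue below the mean. The first 4 columns, replicate 1, are all below the mean for Cdkn1a, Mdm2, Sesn2 and Ccng1, with Cdkn1a at -2.31 in Ptpn11D61Y S and -0.60 in control S.

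Across the 12 arrays the members formed a correlated group of 4. Pearson's r was 0.949 for Mdm2 with Ccng1, 0.944 for Cdkn1a with Mdm2, 0.933 for Mdm2 with Sesn2, 0.912 for Cdkn1a with Sesn2, 0.889 for Cdkn1a with Ccng1 and 0.850 for Sesn2 with Ccng1. Over the 8 arrays of replicates 2 and 3 these were 0.643, 0.717, 0.885, 0.823, 0.317 and 0.522, so that the r of Cdkn1a with Ccng1 was much lower without the arrays of replicate 1, whereas Sesn2 kept values above 0.8 with Mdm2 and Cdkn1a. Cdkn1a with Zmat3 was 0.749 over the 12 arrays and -0.31 over the 8. The median r over all 36 pairs was 0.195 on 12 arrays and 0.317 on 8. These values describe arrays that share animals and normalization and were not tested.

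Without the arrays of replicate 1, Cdkn1a, Mdm2 and Sesn2 were higher in Ptpn11D61Y than in control slices, short of an adjusted threshold. In the basal state Cdkn1a then stood at 9.16 and 9.60 in Ptpn11D61Y B, against 8.71 and 8.70 in control B. The array at 9.60 was the one with the high choroid plexus and endothelial markers. The array at 9.16 also lay above both control B arrays. It had the highest summed signal of oligodendrocyte markers, 9056, against 6366 and 5455 in control B replicates 2 and 3. The part of all these markers in the difference was not tested. The log2 fold change of Cdkn1a was 0.67 ± 0.15 (adjusted p = 0.59, unadjusted p = 0.003, limma), past the filter, as for 4.19% of all clusters on these 8 arrays. Sesn2 differed by 0.52 ± 0.14 and Mdm2 by 0.45 ± 0.17, with unadjusted p values of 0.00837 and 0.0286 in limma and fold changes under 1.5. An unadjusted p under 0.05 was reached by these 3 of the 9 members and by 7.29% of all clusters. The 3 genes were correlated with each other on these arrays, with r of 0.717 to 0.885, and do not count as independent observations. Over both states the differences were 0.44 ± 0.11 for Cdkn1a, 0.46 ± 0.10 for Sesn2 and 0.33 ± 0.12 for Mdm2, with adjusted p values of 0.562, 0.555 and 0.629 in limma. In that comparison on these 8 arrays 7.30% of all clusters had an unadjusted p under 0.05 in limma. The fit over both states took S and B arrays of the same animal number as independent. Its standard errors therefore do not measure the spread between animals. With all 12 arrays the genotype differences over both states were -0.04 ± 0.77 for Cdkn1a, 0.25 ± 0.25 for Sesn2 and 0.22 ± 0.35 for Mdm2, so the direction for Cdkn1a depended on which arrays were used.

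Between stimulated and basal slices of the same animal number, Cdkn1a differed in opposite directions in the genotypes. The difference S minus B was -0.11, -0.03 and -0.48 in the Ptpn11D61Y animals and 1.33, 0.14 and 0.26 in the control animals. All 3 animals of 1 genotype went one way and all 3 of the other the opposite way in 1.26% of all clusters, and Cdkn1a was the only one of the 9 members that did so. The difference of these responses, Ptpn11D61Y minus control, was -0.78 ± 1.55 with a 95% interval of -4.17 to 2.60 (adjusted p = 1, limma). With the animal number as a fixed block the standard error was 0.32 and the unadjusted p = 0.0407 in limma, past the filter, as for 1.71% of all clusters, with an adjusted p of 1. With the animal as a random block the standard error was 1.15 and the unadjusted p = 0.508 in limma, and Cdkn1a did not pass. Leaving out single arrays moved the difference between -1.93 and 0.31, and it was above 0 without control B replicate 1 (0.04) and without Ptpn11D61Y S replicate 1 (0.31). Without the arrays of replicate 1 the difference was -0.46 ± 0.22 (adjusted p = 1, limma). For the other members the differences of the responses were -0.52 ± 0.79 for Ccng1, -0.47 ± 0.42 for Perp, -0.31 ± 0.70 for Mdm2, -0.31 ± 0.49 for Sesn2, -0.07 ± 0.69 for Eda2r and 0.29 ± 0.32 for Bbc3. Of the 9 members 2, Bbc3 and Pmaip1, were above 0, where 56.7% of all clusters were. A low count was not particular to the members. It was 2 of 12 for their close paralogs, 3 of 17 for regulators of p53 and 2 of 14 for endothelial markers. Among other p53 targets it was 3 of 12 for repair and metabolism, 8 of 12 for arrest and 6 of 13 for apoptosis.

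**Figure D5:**
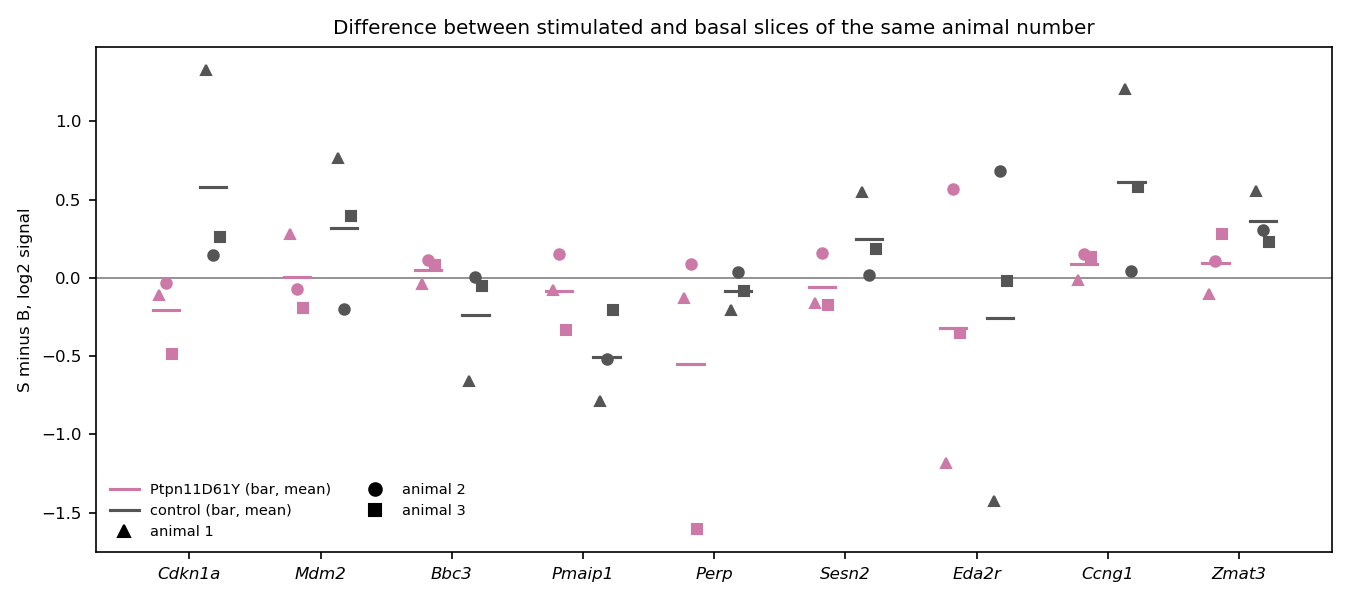
Difference between stimulated and basal slices of the same animal number (y axis, S minus B, log2 signal) for the 9 members (x axis), with Ptpn11D61Y animals left and control animals right for each gene, symbols for animals 1 to 3 and bars for the mean of 3 animals. Cdkn1a lies below 0 in all 3 Ptpn11D61Y animals and above 0 in all 3 control animals, and Perp has 1 Ptpn11D61Y animal at -1.61.

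The wider p53 network was read through lists of related genes. Of 18 regulators of p53, 17 were measured and none passed the filter in any of the 7 comparisons. Mdm4, the partner of Mdm2 that masks the activation domain of p53, differed by 0.16 ± 0.22 between Ptpn11D61Y B and control B, 0.08 ± 0.22 between Ptpn11D61Y S and control S, -0.04 ± 0.22 between control S and control B and -0.12 ± 0.22 between Ptpn11D61Y S and Ptpn11D61Y B. Unlike that of Mdm2, the signal of Mdm4 was lowest in replicate 1 in the basal groups only. The regulators with the smallest unadjusted p for Ptpn11D61Y B against control B were Trp73, a p53 homolog, at 0.20 ± 0.23, and the deacetylase Sirt1 at 0.25 ± 0.30. Of the other arrest targets 12 of 13 were measured and of the repair and metabolism targets 12 of 16, and none passed the filter. In control S against control B the mitotic phosphatase Cdc25c was at -0.85 ± 0.47 and the spindle protein Ckap2 at -0.58 ± 0.32. Each had an unadjusted p above 0.05 in limma and the groups apart, as in 8.21% of all clusters. Both were dim, with means in control S and control B of 3.82 and 4.67 for Cdc25c and 3.74 and 4.33 for Ckap2. Control S replicate 1 had the lowest median signal of the 12 arrays, 36.5, and the most clusters under 1, 2188. The part of that array in these differences was not tested. Ephx1, an epoxide hydrolase, was at 0.65 ± 0.31 and Dcxr, a carbonyl reductase, at 0.40 ± 0.19 for Ptpn11D61Y B against control B, the repair and metabolism genes with the smallest unadjusted p in that comparison.

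Of the 13 other apoptosis targets 1 passed the filter in 1 of the 4 comparisons between groups. Pycard, the adaptor of inflammasomes, was lower in control S than in control B by -1.05 ± 0.47 (means of 5.66 in control S and 6.71 in control B, adjusted p = 0.912, limma), with the groups apart. In this direction 2.65% of all clusters passed the filter and 8.21% had the groups apart. Pidd1, an adaptor of caspase 2, was at -0.41 ± 0.32 in the same comparison, with overlap. Bid, a BH3-only protein cleaved by caspase 8, was lower in Ptpn11D61Y B than in control B by -0.45 ± 0.21, with the groups apart, as in 2.03% of all clusters, and the filter missed, and Casp1 was at 0.45 ± 0.41. Of the Bcl-2 family outside the members 13 of 15 were measured and none passed. Hrk, a BH3-only protein of neurons, was 0.44 ± 0.18 higher in control S than in control B, under a fold of 1.5. Its groups were apart, as in 2.03% of all clusters for this comparison and direction, and Bik was at -0.33 ± 0.23. Among the 12 close paralogs of the members none passed, and Cdkn1c, the paralog of Cdkn1a, was at 0.43 ± 0.23 and Bok at -0.19 ± 0.20 for Ptpn11D61Y B against control B.

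Noncoding RNAs known as p53 targets include the miR-34 family, whose members share a seed, the bases 2 to 8 that pair with target mRNAs. The mature 5p sequences given by RefSeq (GRCm38.p6) for miR-34a (chr4:150068473-150068494, plus strand) and miR-34b (chr9:51103610-51103632, minus strand) are shown with the seed in capitals, since both had the same seed.
miR-34a-5p: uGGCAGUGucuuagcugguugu
miR-34b-5p: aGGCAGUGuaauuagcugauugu
The array probes read the precursor region and not the mature form. Mir34c had log2 signals of 6.49, 5.16 and 5.06 in Ptpn11D61Y S, 7.13, 5.49 and 5.75 in Ptpn11D61Y B, 5.14, 5.42 and 5.13 in control S and 7.02, 5.34 and 5.33 in control B. Here replicate 1 was the high array in 3 of the 4 groups, the opposite of Cdkn1a, and Mir34c differed by -0.67 ± 0.55 and Trp53cor1, the lincRNA-p21, by -0.27 ± 0.36 between control S and control B. Mir34b differed by 0.12 ± 0.25 between Ptpn11D61Y B and control B and by -0.32 ± 0.25 between Ptpn11D61Y S and Ptpn11D61Y B. Neat1, a nuclear long noncoding RNA of paraspeckles, was at 8.69, 8.32 and 8.52 in Ptpn11D61Y B, against 8.73, 7.12 and 7.46 in control B, a difference of 0.74 ± 0.43. In Ptpn11D61Y S it was 8.07, 7.73 and 7.69, all below Ptpn11D61Y B (-0.68 ± 0.43), as in 3.13% of all clusters. None of the 6 measured noncoding RNAs passed the filter in any of the 7 comparisons.

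The 12 genes of the integrated stress response, which shares Sesn2 with the p53 list, were measured as a neighbouring stress pathway. Trib3, a pseudokinase induced by Atf4, passed the filter in both comparisons that use the control S arrays, at -0.83 ± 0.33 for control S against control B and 0.73 ± 0.33 for Ptpn11D61Y S against control S (limma, adjusted p values of 0.912 and 1). Of all clusters 3.17% and 1.83% passed it in these comparisons, which share the control S arrays and are not separate observations. The Trib3 groups overlapped in the first and were apart in the second, as in 4.76% of all clusters for that direction. The part of control S replicate 1, the array with the lowest median signal, was not tested. The other 11 genes of this list did not pass in any of the 4 comparisons between groups, and those with the smallest unadjusted p were Chac1 at -0.47 ± 0.24 for control S against control B and Slc7a11 at 0.28 ± 0.24 for Ptpn11D61Y S against control S. Besides Perp, the members with the largest F statistic over the 4 groups were Pmaip1 and Zmat3. The genes most like Pmaip1 across the 12 arrays were Gm9049 (r = 0.875), Mir92b (r = 0.864) and Mir181d (r = 0.860), and those most like Zmat3 were Rasl11a (r = 0.967), Pdap1 (r = 0.957) and Zfp326 (r = 0.957).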

How the data were processed

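Total RNA of hippocampal slices was hybridised to 12 Affymetrix Mouse Gene 2.0 ST arrays. The authors corrected the background, quantile normalized the arrays and summarised probes with PLIER, and deposited 1 linear intensity per transcript cluster, although the methods describe log2 values. Depth does not apply to arrays, and the number of arrays limits the precision. Clusters were named through the platform annotation: 23521 of 41345 carried 1 symbol, 1820 several and 16004 none. Intensities under 1 were set to 1 and log2 transformed. Limma 3.58.1 in R 4.3.3 fitted 4 group coefficients to all 12 arrays with 8 residual degrees of freedom and a variance trend, two-sided, with Benjamini-Hochberg adjustment over all clusters, and the filter was a fold change of at least 1.5 with an unadjusted p under 0.05. The methods' one-way ANOVA and other normalizations, filters, replicate blocks and left-out arrays were alternatives.

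The labels number the animals of each group, and a number shared by S and B within a genotype was read as 1 animal, which the labels do not state outright. Deviations of the paired arrays from their group means correlated at 0.55, 0.39 and 0.19 in Ptpn11D61Y and at 0.05, -0.01 and 0.04 in control animals. The rule for named genes was all members, Mdm4, the genes of each other list past the filter with the 2 of smallest unadjusted p in each comparison described for that list, the highest markers, and the 3 genes most like each of the 3 members with the largest F statistic. Mir34c, Neat1 and the choroid plexus markers were also given by array, for the markers in part. The members and lists were chosen with earlier results of these data known.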

Additional observations from a re-analysis of the deposited data

Results flagged for a closer look

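Cdkn1a had a difference of the S against B responses, Ptpn11D61Y minus control, of -0.78 on the log2 scale. Stimulated slices lay below basal slices in all 3 Ptpn11D61Y animals and above them in all 3 control animals. The control difference was 1.33 in animal 1, against 0.14 and 0.26 in animals 2 and 3. Leaving out control B replicate 1 or Ptpn11D61Y S replicate 1 reversed the sign of the difference of the responses. The limma test of the difference itself did not reach the threshold on all 12 arrays (adjusted p = 1), and 520 of 41345 clusters showed such opposite directions.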

How the results depend on the processing

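The 9 members had 1109 values under the alternatives, of which 1004 kept their sign and 6 passed the filter, and the lowest adjusted p among them was 0.51 (limma). The count of members past the filter was 0 in each comparison. It became 1 for Ptpn11D61Y B against control B with replicate 1 of every group left out (Cdkn1a, 0.67). It became 1 for control S against control B under the fixed replicate block (Ccng1, 0.61), and 1 for the difference of the responses under the same replicate block (Cdkn1a, -0.78). It stayed at 0 in both with the animal as a random replicate block. With single arrays left out the count ranged from 0 to 1: it was 1 without Ptpn11D61Y B replicate 2 in both comparisons with Ptpn11D61Y B (Perp, 0.80 against control B and -0.77 for Ptpn11D61Y S against Ptpn11D61Y B) and without control B replicate 3 for control S against control B (Pmaip1, -0.64). The cause of these changes was not tested. Across genotypes the replicate numbers are shared only as numbers, although deviations of same-numbered arrays correlated at 0.56, 0.36 and 0.19 in B and 0.12, 0.04 and 0.18 in S, and the number as a block changed no call of a member between genotypes. Eda2r had no value under the minimum mean signal of 5. The mean of several clusters of a symbol was not run because no member had more than 1. The 3 arrays in each group limit the precision: intervals of Cdkn1a span more than 4 log2 units.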
